A study of Mus musculus with 20 samples.

Results

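Compound 942 was compared with methanol on 6 of the 20 arrays of the series: 1 array each of C2C12 cells given 6.25, 12.5 or 25 µM of the compound, and 3 arrays of cells given methanol, which the treatment protocol names beside the compounds. C2C12 is a mouse myoblast line that fuses into muscle fibres when it differentiates and turns towards bone under bone morphogenetic proteins. All arrays of the series hybridised total RNA of this line, grown with 5% fetal bovine serum in 24-well plates. No dose of the compound was repeated. The labels do not say that the 3 methanol arrays came from separate cultures. Every p-value below measures a spread pooled over the treatments with 2 or 3 arrays (methanol, untreated and BMP4), which may be technical. Each of these treatments has arrays in both runs described below, and the BMP4 300 ng/ml arrays also differ in labelling. The sources used here do not give the time from treatment to RNA. The dose of 12.5 µM is given in the sample's treatment label and title, but not in the treatment protocol. Reference arrays used beside the comparison were 2 of untreated cells, 2 of BMP4 at 300 ng/ml, and 1 per dose of compounds 178 and 181 at the same 3 doses. Compound 942 is known here by its code name, and the series title presents its compounds as activators of BMP signalling.

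BMP ligands bind receptor kinases that phosphorylate SMAD proteins, and SMAD complexes switch on the Id and inhibitory Smad genes within the nucleus. In C2C12 cells this pathway blocks MyoD-driven muscle differentiation and turns on osteoblast genes such as Sp7 and Alpl. Small molecules can also reach the cell's chemical defences. The transcription factor NRF2 and the aryl hydrocarbon receptor both drive genes of detoxification, and Nqo1 and Aldh3a1 are classical targets of these systems.

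The values were log2 signals, so a difference of 1 is a change by a factor of 2. Medians of the 22180 genes lay between 5.38 and 5.48 on the 6 arrays. Correlations across genes were 0.995 to 0.997 among the arrays of compound 942, 0.993 to 0.996 among those of methanol and 0.994 to 0.996 between them (r; the points share the probes). All 3 arrays of compound 942 were labelled with the Affyexpress method, like BMP4 300 ng/ml replicate 1, and the methanol arrays were not. By the numbers in their titles, compound 942 (15, 16 and 17, in the order of dose) and methanol replicate 1 (11) belong to a first run, and methanol replicates 2 and 3 (19 and 20) to a second. Labelling and compound cannot be told apart in the level. The value of the slope over the 3 doses involves neither labelling nor run. In it, dose and the order of the title numbers cannot be told apart. Its SE and p-value use the pooled spread, which includes differences of run and labelling. Methanol replicate 1 differed from the mean of the other methanol arrays by a median of 0.15 (absolute log2 difference over genes). The BMP4 300 ng/ml arrays, of different labelling and run, differed by 0.15. The mean of compound 942 differed from the mean of methanol by 0.09, but means of 3 arrays vary less than single arrays. Between the single arrays at 25 and 6.25 µM the difference was 0.13. The 10 myoblast markers averaged 9.53 to 9.71 on the 6 arrays, with methanol means from 4.98 (Cav3) to 11.70. Des, which encodes the muscle filament protein desmin, stood at 11.52, 11.62 and 11.64 in methanol and at 11.45, 11.46 and 11.42 in compound 942. Averages of 10 endothelial markers lay between 4.20 and 4.45 on the 6 arrays, and of 10 macrophage markers between 4.31 and 4.51. Those of 9 epithelial markers lay between 5.15 and 5.24, and all these averages were under the array medians. Single members were brighter, up to a methanol mean of 5.84 among the macrophage and 7.05 among the epithelial markers.

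Few genes separated the compound from methanol beyond the spread of the arrays. The limma fit, with Benjamini-Hochberg adjustment over 22180 genes and a threshold of 0.05, called 0 genes higher and 0 lower (0% and 0%) for the mean over the 3 doses, where the lowest adjusted p was 0.581 and 736 genes (3.32%; 1.44% higher and 1.88% lower) had an unadjusted p under 0.05. It called 0 genes higher (0%) and 1 lower (0.00451%) for the 25 µM array, where 720 (3.25%; 1.17% higher and 2.07% lower) passed unadjusted, and 0 in either direction (0% and 0%) for the slope per doubling of dose, where 531 (2.39%; 1.04% higher and 1.35% lower) did. By chance 1109 genes would pass unadjusted. Each dose had a lone array, whose spread the fit took from the treatments with 2 or 3 arrays. Counts that need no test give the background for the gene groups below. All 3 compound arrays lay above all 3 methanol arrays in 1253 genes (5.65%) and below them in 1507 (6.79%). Both dose steps went up in 4041 genes (18.2%) and down in 4689 (21.1%), a split that was 2877 to 5655 when each array was centred on its median and 4481 to 4211 after quantile normalization. The 25 µM array lay above all 3 methanol and both untreated arrays in 3078 genes (13.9%) and below them in 3822 (17.2%), and the corresponding counts for 6.25 µM were 3102 (14%) and 3305 (14.9%). A stricter dose rule asked for 2 steps of at least 0.2 in the same direction and a 25 µM array beyond all 5 control arrays. It was met by 106 rising genes (0.478%) and 190 falling ones (0.857%), or 76 and 286 under median centring. At 25 µM, 13 genes (0.0586%) stood at least 1 above the methanol mean and 24 (0.108%) at least 1 below it.

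Among the genes that stood highest above methanol at 25 µM were 3 detoxification enzymes, beside Ranbp3l and Cxcl5, which are described further on. Nqo1, a quinone reductase, stood at 5.66, 5.92 and 6.04 in methanol and at 6.33, 6.60 and 7.59 at 6.25, 12.5 and 25 µM. The groups did not overlap, and the untreated arrays (5.82 and 5.97) lay among the methanol ones. At 25 µM its level was 3.30 times that of methanol (log2 difference 1.72 ± 0.28 (SE, n = 1 against 3); limma adjusted p = 0.134), and the slope was 0.63 ± 0.17 per doubling (SE; limma adjusted p = 1). Aldh3a1, an aldehyde dehydrogenase, was at 7.26, 6.85 and 7.14 in methanol and at 7.52, 7.80 and 8.49 with the compound. Its arrays were also ordered by dose and free of overlap, with a difference of 1.41 ± 0.23 at 25 µM (SE; limma adjusted p = 0.134). The third enzyme of this kind was Gsta4, a glutathione transferase that clears lipid aldehydes, at 9.43, 9.49 and 9.75 against 9.87, 10.23 and 10.96 (difference 1.41 ± 0.25 at 25 µM, SE; limma adjusted p = 0.238). None of these 3 genes passed the test. With untreated and methanol arrays pooled as the control, the limma adjusted p at 25 µM was 0.0433 for Nqo1 and 0.0369 for Aldh3a1. With a labelling term in the fit, the mean difference over doses was 0.60 in place of 0.97 for Nqo1, 0.56 in place of 0.85 for Aldh3a1 and 0.30 in place of 0.80 for Gsta4. That term rests on the BMP4 300 ng/ml arrays, which differ in run as well as in labelling. Of these, the first-run array with the Affyexpress label was higher by 0.37 in Nqo1, 0.29 in Aldh3a1 and 0.50 in Gsta4. The parts of labelling and run in the level were not tested, and this pair of arrays cannot tell them apart. The steps from 6.25 to 25 µM lie within arrays of 1 labelling.

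**Figure D1:**
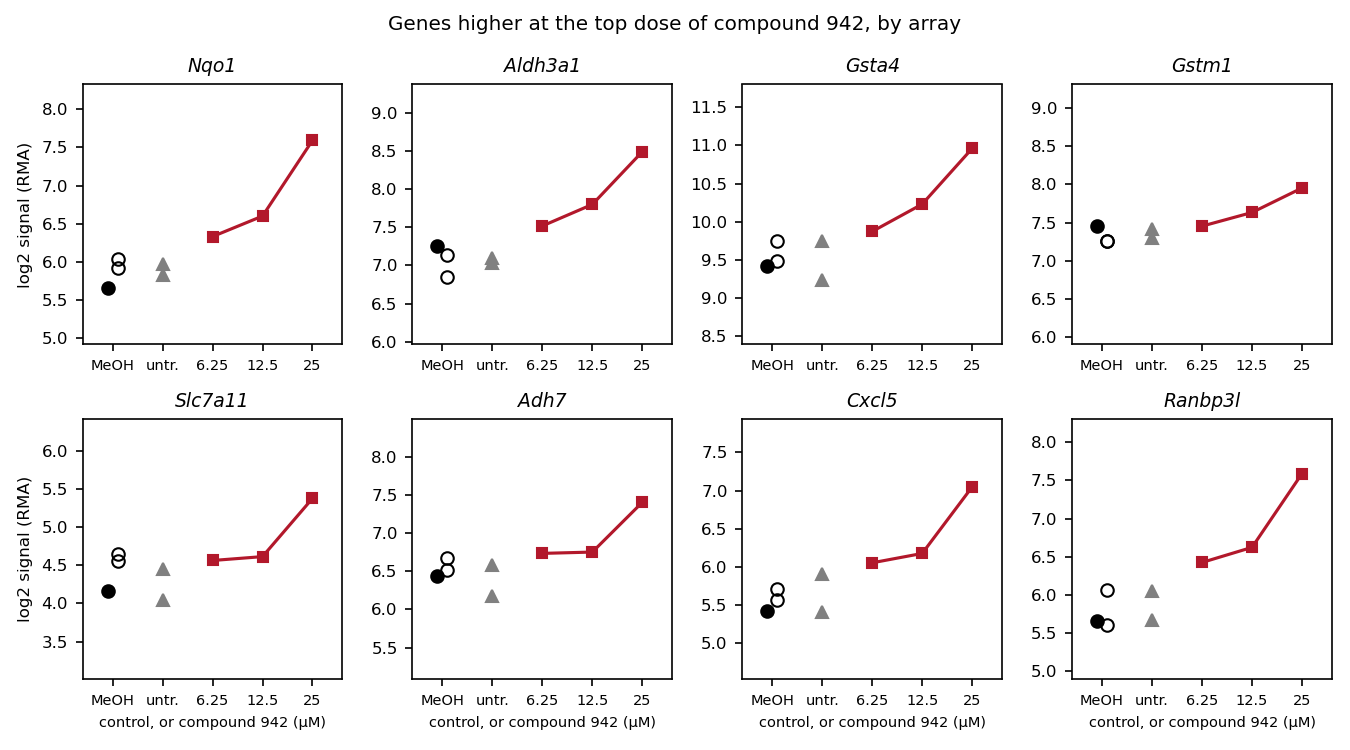
Log2 signal of 8 genes on the 3 methanol arrays (filled circle, first run; open circles, second run), the 2 untreated arrays (triangles) and the 3 arrays of compound 942 (squares, joined in the order of dose, µM). Every panel spans 3.4 log2 units, and in each the 25 µM array is the highest point, as for Nqo1 at 7.59 and Gsta4 at 10.96.

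Of the genes with large differences at 25 µM, 2 with a promoter in the RefSeq table (GRCm38.p6) are shown as the 250 bases before the annotated start, 5′ to 3′ on the gene's strand: Nqo1 (chr8:107403206-107403455, minus strand) because its difference at 25 µM was large and ordered by dose, and Ranbp3l (chr15:8967699-8967948, plus strand), described below, because its difference at 25 µM was the larger one. Capitals mark TGACNNNGC, the core of the element that NRF2 binds, and GCGTG, the core bound by the aryl hydrocarbon receptor, both searched on both strands. The motifs do not overlap each other here.
Nqo1: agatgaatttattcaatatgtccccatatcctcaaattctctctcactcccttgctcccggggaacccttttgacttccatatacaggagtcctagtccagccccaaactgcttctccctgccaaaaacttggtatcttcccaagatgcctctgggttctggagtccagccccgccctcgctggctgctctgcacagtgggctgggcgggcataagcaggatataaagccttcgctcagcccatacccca
Ranbp3l: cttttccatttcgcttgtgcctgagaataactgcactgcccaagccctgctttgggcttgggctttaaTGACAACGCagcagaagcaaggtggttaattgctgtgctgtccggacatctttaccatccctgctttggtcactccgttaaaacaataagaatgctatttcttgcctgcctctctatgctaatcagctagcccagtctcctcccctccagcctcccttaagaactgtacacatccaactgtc
The Ranbp3l stretch held 1 TGACNNNGC, 182 to 174 bases before the start, and no GCGTG, and neither motif's letters occur in the stretch of Nqo1. Of 27018 promoters of the same length, 10.2% held TGACNNNGC and 28.2% GCGTG, so a match is a description only. Among 23 NRF2 targets with an entry, 6 held the first motif and 12 the second.

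The 28 measured NRF2 targets moved unevenly. Of these, 13 went up at both dose steps and 3 down, against 18.2% and 21.1% of all genes. Under median centring 8 went up, against 13% of all genes, and under quantile normalization 16, against 20.2%. The median slope was 0.06, against 0.00 over all genes. The 25 µM array was above all 5 controls in 12 of the 28, against 13.9% of all genes. At 6.25 µM that count was 3 (8 under median centring), against 14% of all genes. Averaged over the list, the level was 7.97, 7.96 and 8.02 in methanol, 7.88 and 8.04 in untreated cells and 8.02, 8.04 and 8.24 over the doses, so that the lower doses stood at or next to the highest control and 25 µM above them all. Gstm1, another glutathione transferase, was at 7.45, 7.26 and 7.27 in methanol and 7.45, 7.63 and 7.95 with the compound. Mgst1, a membrane-bound relative, was at 5.53, 5.33 and 5.29 against 5.34, 5.56 and 5.90, and overlapped methanol at its lower doses. Slc7a11 encodes the cystine importer that feeds glutathione synthesis. Its values were 4.16, 4.56 and 4.64 in methanol and 4.56, 4.61 and 5.38 with the compound, so only the 25 µM array stood apart, and a second, dimmer probe set had a slope of -0.03 in place of 0.41. Hmox1, which breaks down haem and is another textbook target, went the other way, from 7.78, 7.79 and 7.83 in methanol to 7.75, 7.68 and 7.39. It was among the 2 list members (7.14%, against 6.79% of all genes) whose compound arrays all lay below methanol. Counted over the list, 3 members met the dose rule upwards, namely Nqo1, Gsta4 and Mgst1, and 0 downwards.

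Of 9 genes of the aryl hydrocarbon receptor list, 5 went up at both steps and 2 down, against 18.2% and 21.1% of all genes. The median slope was 0.12. Nqo1 and Aldh3a1, which also belong to this list, were the 2 that met the dose rule. Cyp1b1, a hydroxylase that responds to the receptor, was at 6.65, 6.96 and 7.16 in methanol and 6.90, 6.99 and 7.33 with the compound, and its lower doses lay inside the methanol range. The receptor's own gene, Ahr, was lower at the upper doses, with 7.38, 7.50 and 7.37 against 7.40, 7.07 and 6.89. Among 24 genes of drug metabolism and efflux, 8 went up at both steps and 3 down, against 18.2% and 21.1% of all genes. All 3 compound arrays lay above methanol in 5 (20.8%) and below in 1 (4.17%), against 5.65% and 6.79% of all genes. Adh7, an alcohol dehydrogenase that oxidises retinol, was one of these 5, at 6.44, 6.52 and 6.68 against 6.73, 6.75 and 7.40 (difference 0.86 ± 0.18 at 25 µM, SE; limma adjusted p = 0.413). Adh5, which acts on formaldehyde, was higher at the low doses, with 8.15, 8.22 and 8.23 in methanol and 8.67, 8.62 and 8.31 over the doses. Adh1 depended on the control array. Its first-run methanol array stood at 4.94 and the others at 3.98 and 4.01, and the compound gave 4.68, 5.03 and 5.34. The mean over doses thus lay 0.71 above the methanol mean but 0.07 above the array of its own run. A second, dimmer probe set of Adh1 had a mean difference of -0.11 in place of 0.71.

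Among signalling genes, the largest difference belonged to Ranbp3l, which encodes a nuclear export factor for BMP-activated SMADs. It stood at 5.66, 5.61 and 6.07 in methanol and at 6.43, 6.62 and 7.59 with the compound, without overlap and 3.5 times higher, as a level, at 25 µM (difference 1.81 ± 0.44, SE; limma adjusted p = 0.591). BMP4 at 300 ng/ml gave 9.11 (Affyexpress, first run) and 8.55 (standard, second run) for this gene. Its mean difference over doses lay between 0.53 and 1.32 over 25 alternatives. The parts of labelling and run in its level were not tested. Cxcl5, a chemokine that attracts neutrophils, was at 5.43, 5.57 and 5.72 against 6.05, 6.18 and 7.05 (difference 1.48 ± 0.28 at 25 µM, SE; limma adjusted p = 0.246), and BMP4 at 300 ng/ml gave 5.42 and 5.11. Phex, an endopeptidase of bone mineral control, was at 5.57, 5.47 and 5.96 against 6.04, 6.07 and 6.76. Hgf, a growth factor for muscle precursor cells, had its first-run methanol array at 8.30 and the others at 9.0 and 9.14, and the compound gave 8.71, 8.95 and 9.59. Dll4, a Notch ligand, was dim at 4.24, 4.17 and 4.25 in methanol and stood at 4.27, 4.42 and 5.03, where untreated arrays (4.49 and 4.45) lay above the lower doses. Inflammatory genes did not share a direction. Of 27, 4 (14.8%) lay above methanol on all compound arrays and 3 (11.1%) below, against 5.65% and 6.79% of all genes. Ccl5, a chemokine for T cells, was at 5.55, 5.31 and 5.17 against 5.61, 5.85 and 5.82. Il6, a cytokine, was at 5.03, 4.83 and 4.87 against 4.72, 4.32 and 4.13, but the untreated arrays (4.16 and 4.58) were as low. Tnfaip3, which restrains NF-kappaB, was at 7.16, 7.07 and 7.01 against 6.86, 6.71 and 6.52, below the untreated arrays (7.08 and 7.02) as well.

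Postn was the gene that fell. It encodes periostin, a secreted matrix protein that TGF-beta induces in connective tissue. Methanol gave 8.00, 7.79 and 7.27, untreated cells 7.44 and 7.56, and the compound 7.61, 7.04 and 5.63. At 6.25 µM it lay inside the control range, and at 25 µM it lay far below the lowest control array. The 25 µM level was 0.24 of methanol (log2 difference -2.06 ± 0.23, SE, n = 1 against 3; limma adjusted p = 0.0168), and the slope was -0.99 ± 0.14 per doubling (SE; limma adjusted p = 0.225). The call at 25 µM was lost with a labelling term (limma adjusted p = 1, difference -1.95), with labelling and run terms (0.958), without the trend in the variance (0.0707), and when methanol replicate 2 (0.0937) or an array of BMP4 300 ng/ml (0.0626 and 0.0627) was left out. The difference itself lay between -2.37 and -1.90 over all 21 alternatives. BMP4 at 300 ng/ml gave 10.85 and 10.96 for Postn, on the other side of methanol.

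Genes that respond to TGF-beta stood lower with dose, in a list of 17 whose counts and averages include Postn. Of the 17, 13 went down at both steps and 0 up, against 21.1% and 18.2% of all genes. The 25 µM array was below all 5 controls in 14, compared with 4 at 6.25 µM, against 17.2% and 14.9% of all genes. The median slope was -0.12. The list average was 8.75, 8.71 and 8.66 in methanol, 8.69 and 8.70 in untreated cells and 8.67, 8.50 and 8.26 over the doses. Tagln, a smooth muscle actin-binding protein, was at 9.45, 9.49 and 9.41 against 9.30, 9.14 and 8.62 (difference -0.83 ± 0.13 at 25 µM, SE; limma adjusted p = 0.134, and 0.0326 with untreated arrays added to the control). Cnn1, which encodes calponin, stood at 7.21, 6.94 and 6.88 against 6.58, 6.08 and 5.79, well apart on every array, yet its SE was wide (difference -1.22 ± 0.41 at 25 µM; limma adjusted p = 1). Tgfb2, a ligand of the pathway, was at 7.80, 7.87 and 7.73 against 7.72, 7.46 and 7.0 (difference -0.80 ± 0.15 at 25 µM, SE; limma adjusted p = 0.243). Postn, Cnn1 and Tgfb2 were the 3 members that met the dose rule downwards. BMP4 at 300 ng/ml gave 8.97 and 9.02 for Cnn1 and 8.35 and 8.57 for Tgfb2, above methanol in both.

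Matrix genes were mixed. Of 36, Postn among them, 20 went down at both steps and 6 up, against 21.1% and 18.2% of all genes. On all compound arrays 11 (30.6%) lay below methanol and 2 (5.56%) above, against 6.79% and 5.65% of all genes. The median slope was -0.07. Col1a1, the main chain of type I collagen, was at 9.18, 8.91 and 8.77 against 8.88, 8.60 and 7.92. Mfap5, a microfibril protein, was at 7.16, 6.98 and 6.99 against 7.01, 6.77 and 6.15. Aspn, a small leucine-rich proteoglycan, was at 6.75, 6.52 and 6.74 against 6.71, 6.18 and 5.80. In these 3 genes the 6.25 µM array lay within the methanol range and the 25 µM array below it. Fbln1, an elastic fibre protein, went up instead, from 8.54, 8.31 and 8.40 to 8.72, 8.92 and 9.0.

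**Figure D2:**
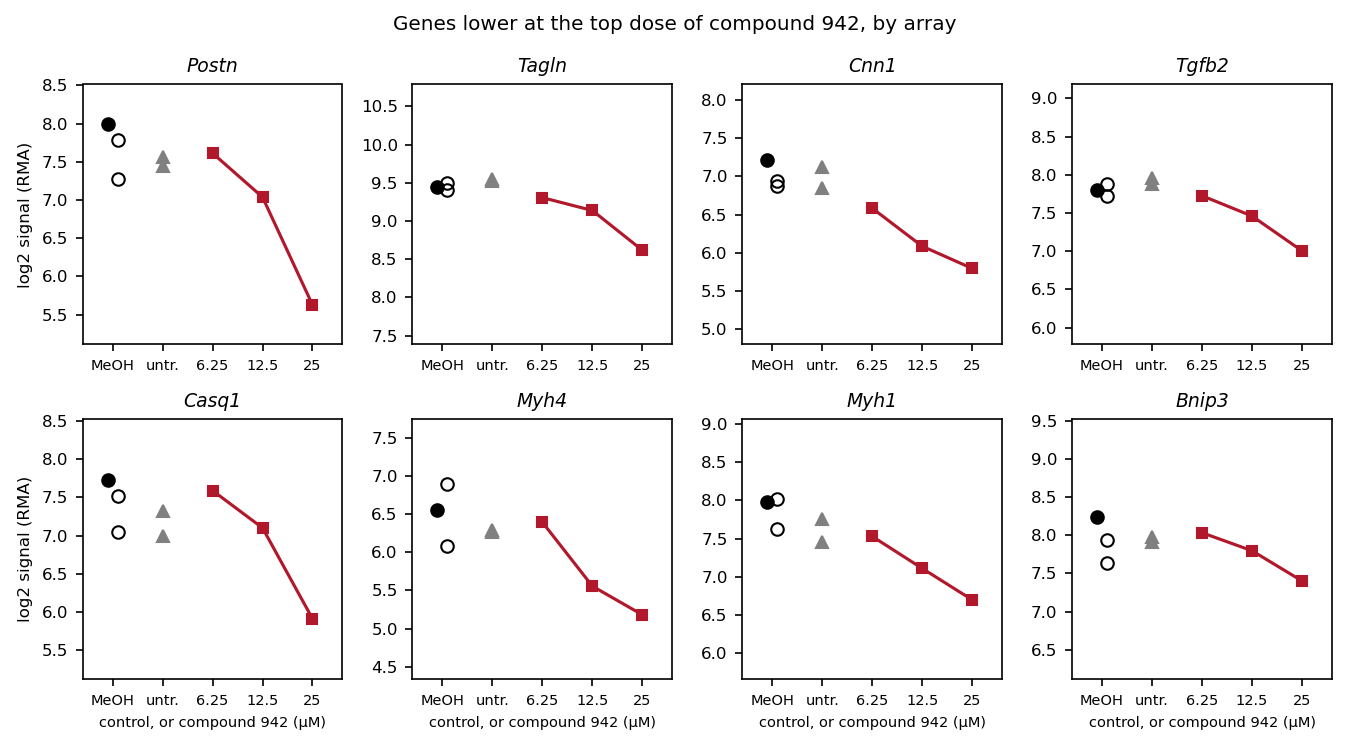
Log2 signal of 8 genes on the methanol (circles; filled, first run), untreated (triangles) and compound 942 arrays (squares, joined in the order of dose, µM), with 3.4 log2 units in every panel. In each panel the 25 µM array is the lowest point, as for Postn at 5.63 and Casq1 at 5.91, and the methanol arrays of the muscle genes are themselves spread.

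Genes of the contractile apparatus were mostly ordered by dose, downwards. Of 49, 41 went down at both steps and 1 up, against 21.1% and 18.2% of all genes. The 25 µM array was below all 5 controls in 44, against 17.2% of all genes. At 6.25 µM that count was 4, against 14.9% of all genes. The median slope was -0.31, compared with 0.00 over all genes. The dose rule was met downwards by 13 members and upwards by 0, against 0.857% and 0.478% of all genes. The 13 became 6 under quantile normalization and 23 under median centring, where 0.649% and 1.29% of all genes met it. Averaged over the list, methanol stood at 8.87, 8.77 and 8.54, untreated cells at 8.79 and 8.61, and the compound at 8.71, 8.56 and 8.14. The 2 lower doses thus lay inside the control range, and methanol replicate 3 was the lowest control array. In the level, 7 members (14.3%) had all 3 compound arrays below all 3 methanol arrays, against 6.79% of all genes, and that count was 24 without methanol replicate 3 and 42 against the first-run methanol array alone, where 11.7% and 33.8% of all genes did the same. No member passed the test. The steps down numbered 45 under median centring and 38 after quantile normalization, against 25.5% and 19% of all genes.

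The promoters of 3 of these genes are shown because their arrays stepped down with dose: myosin heavy chains Myh1 (chr11:67199852-67200101, plus strand) and Myh4 (chr11:67237562-67237811, plus strand), which lie near each other, and the calcium store protein Casq1 (chr1:172219896-172220145, minus strand). Each is the 250 bases before the start, from RefSeq (GRCm38.p6). Capitals mark, on both strands, the E-box CAGCTG that MyoD binds, the CATTCC element of TEAD factors, and the sites of MEF2 and of serum response factor (CArG), which are given by name.
Myh1: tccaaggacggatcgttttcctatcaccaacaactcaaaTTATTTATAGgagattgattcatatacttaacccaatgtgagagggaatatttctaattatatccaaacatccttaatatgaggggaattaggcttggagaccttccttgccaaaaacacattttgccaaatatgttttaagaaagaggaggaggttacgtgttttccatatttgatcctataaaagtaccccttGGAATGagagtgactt
Myh4: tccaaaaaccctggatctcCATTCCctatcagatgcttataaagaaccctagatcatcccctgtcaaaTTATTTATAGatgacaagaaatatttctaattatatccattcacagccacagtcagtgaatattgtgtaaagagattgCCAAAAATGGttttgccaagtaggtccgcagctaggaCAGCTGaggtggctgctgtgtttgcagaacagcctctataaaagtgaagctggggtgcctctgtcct
Casq1: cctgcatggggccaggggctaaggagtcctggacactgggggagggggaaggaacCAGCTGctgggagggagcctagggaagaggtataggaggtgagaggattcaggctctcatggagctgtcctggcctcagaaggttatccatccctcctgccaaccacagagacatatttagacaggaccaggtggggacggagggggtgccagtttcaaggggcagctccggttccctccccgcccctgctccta
In Myh1 the MEF2 match lies 211 to 202 bases before the start and the CATTCC match 16 to 11. Myh4 held all 4 motifs, with MEF2 at 182 to 173, the CArG match at 104 to 95 and CAGCTG at 67 to 62, and Casq1 held 1 CAGCTG at 195 to 190. Over 27018 promoters of this length, 12.8% held CAGCTG, 12.6% CATTCC, 3.01% MEF2 and 1.40% CArG. Of the 40 contractile genes with an entry, 17 held CAGCTG, 10 CATTCC, 7 MEF2 and 5 CArG. The matches are letters only, and no binding was measured.

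Casq1, which buffers calcium in the sarcoplasmic reticulum, had the steepest slope of the list. It was at 7.73, 7.52 and 7.04 in methanol, 7.32 and 6.99 untreated, and 7.59, 7.10 and 5.91 with the compound (slope -0.84 ± 0.16, SE; limma adjusted p = 1; difference at 25 µM -1.52 ± 0.27, SE; limma adjusted p = 0.186). Casq2, its cardiac and slow-muscle relative, was at 9.48, 9.54 and 9.05 against 9.23, 9.02 and 8.31. Adult fast myosin Myh4 was at 6.56, 6.90 and 6.09 against 6.39, 5.56 and 5.18, and Myh1 at 7.97, 8.02 and 7.62 against 7.53, 7.11 and 6.70. Myh1 was one of the 7 genes without overlap, as were slow myosin Myh7 (6.29, 6.57 and 6.19 against 6.07, 5.83 and 5.46) and perinatal myosin Myh8 (5.96, 5.86 and 5.76 against 5.53, 5.40 and 4.73). For Myh7 an untreated array stood at 5.72, between the doses, and a second, dimmer probe set of Myh8 had a mean difference of -0.01 in place of -0.64. Myom1, which crosslinks myosin at the M-band, was at 6.74, 6.70 and 6.31 against 6.48, 6.07 and 5.51. Smpx, a small protein of muscle under stretch, was at 6.69, 6.88 and 6.40 against 6.77, 6.66 and 5.71, so the step came between the upper doses. Between the BMP4 300 ng/ml arrays, where muscle genes are low, the median difference of the list was -0.19 (Affyexpress, first run, minus standard, second run). The parts of labelling and run in the level were not tested.

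Regulators of myogenesis followed only in part. Of 17, 11 went down at both steps and 2 up, against 21.1% and 18.2% of all genes, and the median slope was -0.08. The 25 µM array was below all 5 controls in 8, against 17.2% of all genes. At 6.25 µM 5 stood above all 5 controls and 0 below, against 14% and 14.9% of all genes. On all compound arrays 2 (11.8%) lay above methanol and 0 below, against 5.65% and 6.79% of all genes. Myod1, the factor that commits cells to muscle, was at 10.69, 10.46 and 10.48 against 10.63, 10.48 and 10.43 (mean difference -0.03, 95% interval -0.34 to 0.28). Myog, which starts terminal differentiation, was at 11.22, 10.85 and 10.69 against 11.28, 11.18 and 10.60, and its first 2 doses lay at the top of the methanol range. Mef2c, a partner of the myogenic factors, was at 7.46, 7.55 and 7.11 against 7.25, 7.02 and 6.59, with a slope of -0.14 on a dimmer second probe set in place of -0.33. Rbm24, a splicing regulator of muscle, was at 9.25, 8.97 and 8.68 against 9.18, 8.87 and 8.37, and 1 untreated array stood at 8.53. Ncam1, a cell adhesion molecule of myoblasts, was lower on every array, with 11.54, 11.51 and 11.42 in methanol and 11.41, 11.31 and 10.98 with the compound.

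**Figure D3:**
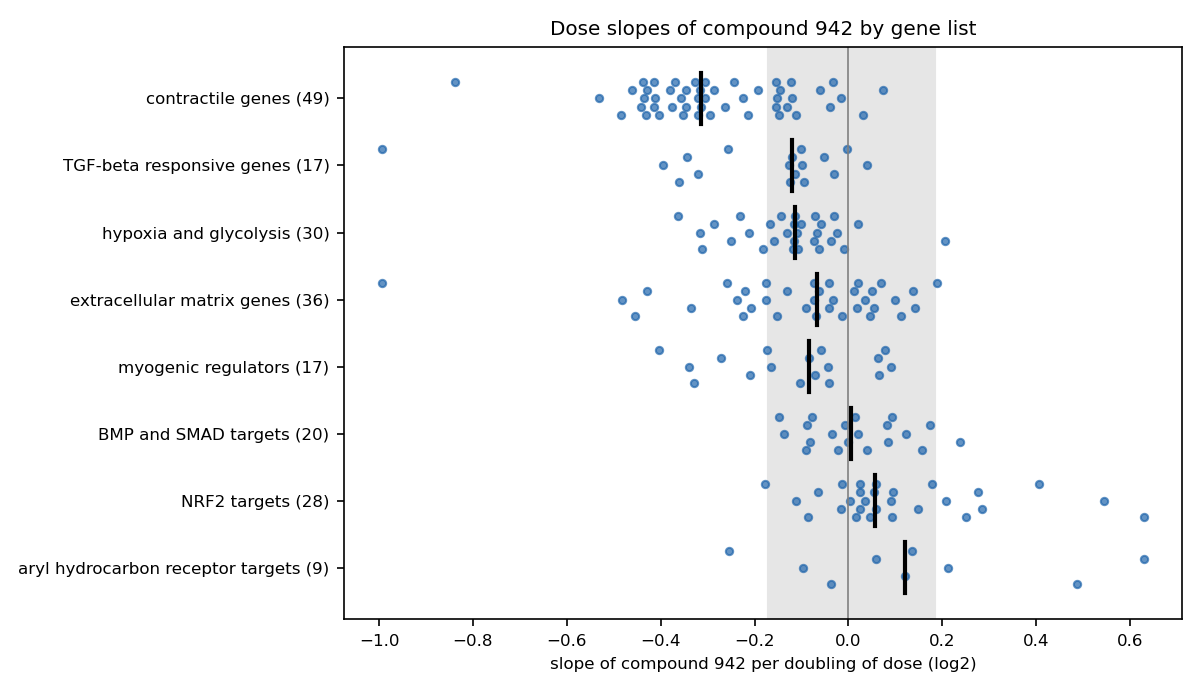
Slope of compound 942 per doubling of dose (log2, x axis) for each measured gene of 8 lists (points; number of genes in brackets), with the median of each list (black bar). The grey band holds the middle 90% of all 22180 genes, from -0.17 to 0.18, and most contractile genes lie to its left, around their median of -0.31.

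Genes of hypoxia and glycolysis were also lower at 25 µM, by smaller steps. Of 30, 24 went down at both steps and 2 up, against 21.1% and 18.2% of all genes. The 24 became 19 under quantile normalization and 26 under median centring, where 19% and 25.5% of all genes went down. The 25 µM array was below all 5 controls in 21, compared with 6 at 6.25 µM, against 17.2% and 14.9% of all genes. The median slope was -0.11. The list average was 8.43, 8.32 and 8.26 in methanol, 8.39 and 8.33 untreated, and 8.35, 8.26 and 8.10 over the doses. Bnip3, a mitophagy receptor, was at 8.23, 7.94 and 7.64 against 8.03, 7.80 and 7.40. Pdk1, the kinase that shuts pyruvate out of mitochondria, was at 7.49, 7.52 and 7.25 against 7.43, 7.14 and 6.86. A second, much dimmer probe set of Pdk1 had a slope of -0.11 in place of -0.29. The lactate exporter Slc16a3 was at 7.82, 7.44 and 7.40 against 7.65, 7.43 and 7.03. Egln3, an oxygen sensor, was at 9.82, 9.55 and 9.31 against 9.58, 9.49 and 8.86. In all 4 the first-run methanol array was at or near the top of the control range, and the order of dose was kept.

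Some genes outside the lists also stood in the order of dose. Lrrn1, a leucine-rich repeat membrane protein, was at 7.91, 8.35 and 8.08 against 7.79, 7.29 and 6.71, without overlap (difference -1.41 ± 0.30 at 25 µM, SE; limma adjusted p = 0.413). Sv2b, a protein of secretory vesicles, was at 6.59, 6.62 and 6.39 against 6.12, 5.82 and 5.42, also without overlap (difference -1.11 ± 0.19, SE; limma adjusted p = 0.165). R3hdml had a wide control range, with 9.88, 9.01 and 8.64 in methanol and 9.55, 9.13 and 7.78 with the compound. Cilp, a cartilage matrix protein, was at 7.02, 5.91 and 5.61 against 6.90, 6.23 and 5.18. Dpep1, a membrane dipeptidase, was at 7.30, 6.62 and 6.24 against 7.02, 6.75 and 5.83, and Nrep at 8.42, 7.80 and 7.72 against 8.26, 7.92 and 7.01. In these 4 genes the 6.25 µM array was near the methanol array of the same run and above the others, and the 25 µM array lay below all of them. Trp53i11, a p53-inducible gene, was at 7.84, 7.76 and 8.06 against 8.12, 7.52 and 6.85, and Gbp8, an interferon-inducible GTPase, at 6.04, 5.77 and 5.90 against 6.34, 5.78 and 5.15. For Nrep, a term for the run gave a slope of -0.63 with a limma adjusted p of 0.0244.

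Targets of the BMP pathway stayed near the background of all genes. Of 20 targets, 6 went up at both steps and 4 down, against 18.2% and 21.1% of all genes. None (0) met the dose rule, and the median slope was 0.01. The list average was 6.58, 6.51 and 6.53 in methanol and 6.54, 6.54 and 6.57 with the compound, and 7.88 and 7.81 with BMP4 at 300 ng/ml. Id1, an inhibitor of myogenic factors and a direct SMAD target, was at 7.33, 7.20 and 7.37 against 7.44, 7.33 and 7.47 (mean difference 0.11, 95% interval -0.68 to 0.90). Id2 differed by -0.10 (-0.64 to 0.45) and Id3 by -0.10 (-0.67 to 0.47). The inhibitory Smads gave -0.11 (-0.77 to 0.56) for Smad6 and -0.14 (-0.72 to 0.44) for Smad7. Sp7, the osteoblast factor osterix, was at 4.40, 4.45 and 4.43 against 4.15, 4.52 and 4.50, and Alpl, alkaline phosphatase of mineralising cells, at 5.10, 5.18 and 4.68 against 4.79, 5.12 and 5.13. All of these groups overlapped. In all 7 of them both BMP4 arrays lay above the upper bound of the compound's interval, though the intervals are wide and no test between the treatments was made. The antagonist genes Grem1 (8.58, 8.74 and 8.70 against 8.84, 8.95 and 9.15) and Nog (5.15, 5.22 and 5.15 against 5.23, 5.48 and 5.31) were the 2 targets without overlap. Both lay above methanol, as 10% of the targets against 5.65% of all genes. Over 15 osteoblast genes, 5 went up at both steps and 3 down, against 18.2% and 21.1% of all genes.

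**Figure D4:**
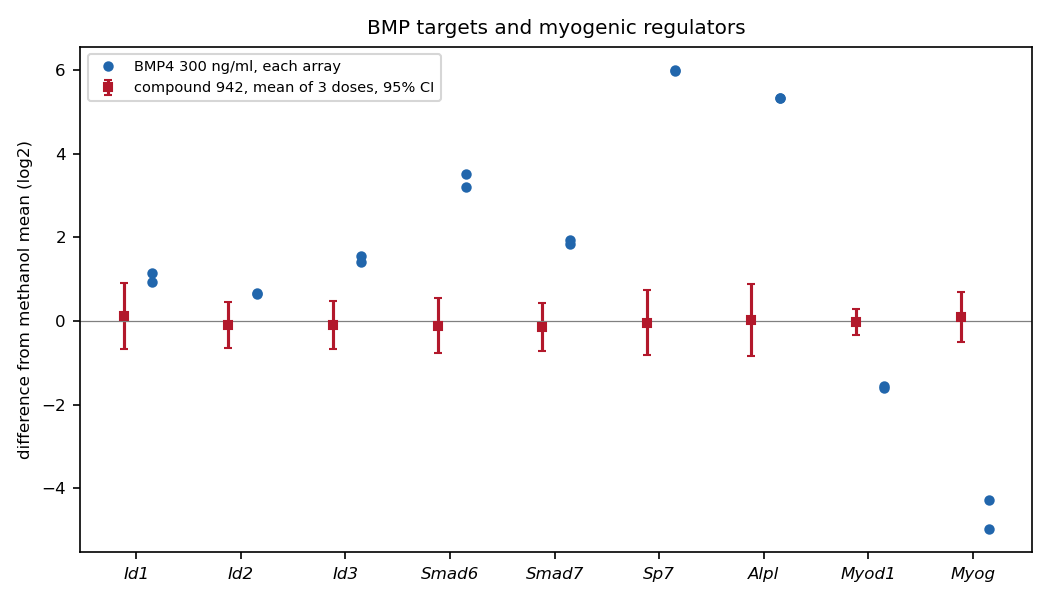
Difference from the methanol mean (log2, y axis) of 9 genes, for the mean of the 3 doses of compound 942 (squares, with 95% intervals from the limma fit) and for each BMP4 300 ng/ml array (circles). The squares lie between -0.14 and 0.11 and every interval covers 0.

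The remaining lists are given by their counts. Of all genes, 21.1% went down at both steps and 18.2% up. Genes of S phase had few ordered dose series, with 3 up and 4 down. Of 32, 6 (18.8%) lay above methanol on all compound arrays and 0 below, against 5.65% and 6.79% of all genes. The 6 became 3 under median centring and 10 under quantile normalization, where 5.21% and 7.07% of all genes did the same. At 6.25 µM 19 stood above all 5 controls and at 25 µM 17, against 14% and 13.9% of all genes. The median slope was 0.02. Ccne1, cyclin E, was at 7.51, 7.48 and 7.46 against 7.70, 7.70 and 7.82. Across this list the Affyexpress, first-run array of BMP4 300 ng/ml was higher than the other by a median of 0.15. The median difference of the compound from methanol was 0.06, and the parts of labelling and run in it were not tested. Cholesterol genes went down at both steps in 11 of 19 and up in 0, by a median slope of -0.07, and 0 met the dose rule. Pmvk, an enzyme of the mevalonate pathway, was at 6.58, 6.43 and 6.60 against 7.01, 6.92 and 6.93, and Insig1, which restrains sterol synthesis, at 9.65, 9.61 and 9.53 against 9.88, 9.82 and 9.91, both without overlap and without an order by dose. Of 35 genes of the integrated stress response, 15 went down at both steps and 3 up. The 15 became 8 under quantile normalization and 14 under median centring, where 19% and 25.5% of all genes went down. On all compound arrays 7 (20%) lay below methanol, against 6.79% of all genes, and 3 under median centring, against 6%. Notch genes went down at both steps in 7 of 14 and up in 2, and myoblast markers in 5 of 10 and 0. The dim endothelial markers went up in 6 of 10 and down in 0, with a median slope of 0.13, and their part in other results was not tested. The unfolded protein response had 8 of 21 down and 4 up. The heat shock response had 4 of 17 each way (23.5%), near the shares of all genes. Adipocyte and lipid genes gave opposite examples: Lpl, lipoprotein lipase, was at 7.27, 8.12 and 8.09 against 7.60, 7.79 and 8.57, and the fatty acid receptor Cd36 at 4.64, 4.40 and 4.41 against 4.58, 3.97 and 3.59. A second, dimmer probe set of Lpl had a slope of 0.09 in place of 0.48 and a mean difference of -0.20 in place of 0.16.

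The slopes of compound 942 were set against those of compounds 178 and 181 at the same 3 doses. The limma test of the difference called 0 genes in either direction against 178 (0% and 0%; 529 unadjusted, 2.39%, of which 1.34% higher and 1.04% lower) and 0 against 181 (0% and 0%; 523 unadjusted, 2.36%, of which 1.28% higher and 1.08% lower). The other compounds come from the second run with standard labelling. No control array enters the value of a slope, but the SE and p-value use the pooled spread. For contractile genes the median slope was -0.31 with 942, 0.00 with 178 and -0.22 with 181, and both steps went down in 41, 9 and 40 of 49 genes, against 21.1%, 16.4% and 19.4% of all genes. For TGF-beta responsive genes the median slopes were -0.12, 0.06 and -0.06, and both steps went down in 13, 1 and 8 of 17. For NRF2 targets they were 0.06, 0.01 and 0.11, with both steps up in 13, 6 and 17 of 28, against 18.2%, 17.5% and 19.2% of all genes. Postn had slopes of -0.99, 0.27 and -0.23. The difference from 178 was -1.26 (95% interval -1.70 to -0.82; limma adjusted p = 0.666) and from 181 it was -0.76 (-1.20 to -0.32; limma adjusted p = 1). Mfap5 had -0.43, 0.24 and 0.02. Nqo1 had 0.63, -0.12 and 0.33, and Gsta4 0.54, 0.08 and 0.55, where the difference between 942 and 181 was -0.01 (-0.48 to 0.47). Slc7a11 was steeper with 181, with slopes of 0.41, 0.15 and 1.04 and a difference of -0.63 (-1.16 to -0.10; limma adjusted p = 1). For Dll4 the slopes were 0.38, -0.02 and -0.22 (difference from 181 0.60, 0.30 to 0.90; limma adjusted p = 1). With no difference past the threshold, these values do not show that the compounds acted differently or alike.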

How the data were processed

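Total RNA of C2C12 cells was hybridised to Affymetrix mouse gene arrays. The deposited values are log2 signals for 41345 probe sets on 20 arrays, made by the authors with Partek 6.5 and RMA, per the submitters' processing notes. The labels speak of a batch correction between labelling methods, and the sources used here do not say whether it was applied. Of the probe sets, 23521 had 1 gene symbol, 1814 several and 16010 none. The brightest probe set stood for each of 1082 genes with more than 1, which left 22180 genes, with no filter on low signals. No detection values were used, so genes with log2 signals under 5 may be near background, and the number of arrays limits the precision.

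All 20 arrays were fitted in limma 3.58.1 (R 4.3.3) with 1 mean per treatment and dose, no covariate, a variance trend and Benjamini-Hochberg adjustment over 22180 genes (threshold 0.05). The contrasts were the mean of the 3 doses of compound 942 minus methanol, the 25 µM array minus methanol, the slope per doubling of dose (the difference of 25 and 6.25 µM over the 2 doublings), and the difference of slopes from compounds 178 and 181. Scripts were tested on simulated data. Genes were named by rule: the 8 largest mean differences each way without overlap, the 12 steepest dose series each way under the dose rule, up to 4 members per list by slope and by mean difference, and 9 BMP and muscle genes. Members and lists were chosen with earlier results of these data known, and the count of 25 µM arrays beyond all 5 controls was chosen after values were seen. Alternatives were other scalings, probe set rules, filters and control arrays, terms for labelling and run, and each array left out.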

Additional observations from a re-analysis of the deposited data

Results flagged for a closer look

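For 5 of the genes described here, all arrays of compound 942 lay on one side of all 3 methanol arrays. All arrays of another compound lay on the opposite side, and these differences in level were not tested. The share of all genes with this pattern was not counted, so the 5 are examples only. Of all genes, 5.65% lay above and 6.79% below methanol with 942, 4.67% and 4.92% with 178, and 4.82% and 6.51% with 181. Des was lower with 942, while compound 178 stood at 11.67, 11.70 and 11.66, a mean of 0.082 above methanol. Tagln was lower with 942 and at 9.50, 9.63 and 9.66 with 178, a mean of 0.15 above methanol. Hmox1 was lower with 942 and stood at 7.99, 7.98 and 7.95 with 178, a mean of 0.17 above methanol, and at 7.91, 7.90 and 8.17 with 181, a mean of 0.19 above it. Dut, which clears dUTP from the nucleotide pool, was at 8.26, 8.14 and 8.16 in methanol and 8.32, 8.43 and 8.39 with 942. It was at 8.05, 8.05 and 8.08 with 178 (mean -0.13 from methanol) and 8.06, 7.87 and 8.02 with 181 (-0.21). Ccne1 was higher with 942 and at 7.24, 7.43 and 7.45 with 181 (-0.11). Compound 942 and the other compounds also differ in labelling and run, whose part in these values was not tested. No group held 4 arrays, so single arrays were not examined as outliers.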

How the results depend on the processing

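The count of genes called for the mean over doses was 0 under all 25 alternatives, with 333 to 1704 genes at an unadjusted p under 0.05, and the slope differences from 178 and 181 gave 0 under all 19 alternatives each. The single call at 25 µM became 0 with a labelling term and without the variance trend, 3 with a run term (Actg2, Nrep and Postn), 2 with both terms (2610528A11Rik and Lrrn1) and 5 with untreated and methanol arrays pooled, and it ranged from 0 to 3 when 1 array was left out. The slope count of 0 became 1 with a run term (Nrep) and 1 without methanol replicate 3 (Postn, limma adjusted p = 0.0197), and leaving out other arrays gave 0. Small differences of single genes changed sign, and the cause was not tested. The mean difference was -0.11 with a labelling term and -0.25 with a run term for Id1, 0.17 against the first-run methanol array and 0.024 against pooled controls for Id2, and 0.15 with both terms for Smad7. Sp7 gave 0.13 with both terms, 0.046 against pooled controls and, with 1 array left out, -0.103 to 0.084 (the latter without 6.25 µM). Alpl gave -0.31 with a run term, -0.086 against the first-run array, -0.068 with probe sets averaged, -0.13 without methanol replicate 3 and -0.03 without the 12.5 or the 25 µM array. Myod1 ranged from -0.089 to 0.043 with 1 array left out, above 0 without methanol replicate 1 or the 25 µM array, and Des gave 0.20, 0.037 and 0.11 with labelling, run and both terms. Nog gave -0.12 with a labelling term and -0.049 with both. The median mean difference of NRF2 targets ranged from -0.013 (without 25 µM) to 0.085 with 1 array left out. For BMP targets, at -0.01 in the report's setting, it was -0.10 with a labelling term and -0.20 with a run term, and it ranged from -0.025 to 0.04 (0.0398, without methanol replicate 1) with 1 array left out, and their median slope was -0.018 under median centring and -0.0046 with genes of a mean signal of at least 5. The contractile median slope stayed between -0.34 and -0.28. No paired analysis was possible because the labels give no replicate numbers.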
